A study of Homo sapiens with 9 samples.

Results

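The Th2 cytokine locus on chromosome 5 holds IL4, IL5 and IL13, the cytokine genes that define type 2 helper T cells, and RAD50, a housekeeping gene of DNA double-strand break repair that lies between IL5 and IL13. Its accessible regions were read from 4 peak lists of FAIRE-seq (formaldehyde-assisted isolation of regulatory elements, in which DNA that is poorly crosslinked to protein is recovered and sequenced) in Jurkat, a CD4+ human T cell leukaemia line used here as 1 clone, E6-1. Peaks of the 4 lists that overlapped or touched were joined, and a joined region was counted in the locus when it lay in the body, or within 50 kb of the start, of one of the 4 genes. By this rule the locus spanned chr5:131841711-132059678 (GRCh37), a window of 218 kb, and held 6 of the 40703 regions on chromosomes 1 to 22, X and Y. The 6 regions were built from 12 peaks and covered 3062 bp, or 1.40% of the window.

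The labels name the 4 lists by cell state and drug. NS cells were not stimulated, and SW (stimulus withdrawal) cells received PMA and Ionomycin (for 4 h by the labels, and for a shorter time by the study's methods), were washed and were then cultured for 1 day. All were pretreated, either with the vehicle DMSO, for which no time is given, or for 1 h with 15 µM rottlerin, an inhibitor used against protein kinase C. The lists are therefore called NS DMSO, SW DMSO, NS rottlerin and SW rottlerin after their labels. By the labels, the other 5 of the 9 samples, the stimulated and restimulated cells and the total input, had no list analysed here. The labels attach a pair of the lists to rottlerin, whereas the study's methods describe peak calling in its DMSO samples, nonstimulated, stimulated, withdrawn and restimulated. Over all contigs the 4 lists merged to 40731 regions. This is also the total that the methods state for the pooled DMSO samples. The methods remove 28 of these for their contig, and 28 merged regions here lay outside chromosomes 1 to 22, X and Y. The lists labelled SW DMSO, NS rottlerin and SW rottlerin may thus come from stimulated, withdrawn or restimulated DMSO cells. The state of the cells behind every list but the NS DMSO list is therefore uncertain, and the names below are labels only. No difference between lists is read below as an effect of rottlerin or of rest. Each state had 1 library, so no p-value was computed, and a missing peak means only that none was called in that library, whose depth was not known. In bulk chromatin, fewer cells with an open site and less opening in every cell cannot be told apart.

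In type 2 helper T cells the 3 cytokine genes are switched on together, under the transcription factors GATA3, STAT6 and MAF, with NFAT and AP-1 carrying the signal from the T cell receptor. A locus control region in the 3′ part of RAD50 contacts the cytokine promoters and is needed for their full expression. IL4 is the growth and differentiation factor of these cells and drives the switch to IgE, IL5 supports eosinophils, and IL13 acts on epithelium and smooth muscle. Jurkat cells are not polarised type 2 cells, and the lists measure accessible DNA and not transcription.

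Sequence is shown first for the regions that the results turn on: region 6, the only one found in all lists, region 1, which was listed only under the rottlerin labels, region 2, the RAD50 promoter, and regions 4 and 5, in the part of RAD50 that holds the locus control region. Capitals mark matches on either strand to 11 motif families, whose letters are spelled out with the counts of matches. The sequences are the plus strand of GRCh37, at chr5:131865040-131865339 (region 1), chr5:131892545-131892844 (region 2), chr5:131971639-131971938 (region 4), chr5:131975359-131975658 (region 5) and chr5:132024623-132024922 (region 6). The first 4 are the central 300 bp of the regions, and the last is the 300 bp of region 6 with the most GATA matches, chosen after the matches were seen.
region 1: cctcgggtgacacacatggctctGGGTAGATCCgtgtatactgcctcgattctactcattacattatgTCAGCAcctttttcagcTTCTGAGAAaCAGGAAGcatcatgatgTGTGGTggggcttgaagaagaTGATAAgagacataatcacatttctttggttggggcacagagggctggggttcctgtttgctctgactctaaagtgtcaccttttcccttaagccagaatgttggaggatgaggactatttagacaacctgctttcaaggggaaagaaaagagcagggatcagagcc
region 2: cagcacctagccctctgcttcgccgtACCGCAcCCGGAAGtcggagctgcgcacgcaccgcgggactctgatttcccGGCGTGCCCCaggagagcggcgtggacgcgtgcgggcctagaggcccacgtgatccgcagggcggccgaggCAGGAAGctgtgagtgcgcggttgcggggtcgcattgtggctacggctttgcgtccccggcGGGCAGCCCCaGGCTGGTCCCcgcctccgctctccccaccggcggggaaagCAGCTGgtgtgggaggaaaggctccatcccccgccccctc
region 4: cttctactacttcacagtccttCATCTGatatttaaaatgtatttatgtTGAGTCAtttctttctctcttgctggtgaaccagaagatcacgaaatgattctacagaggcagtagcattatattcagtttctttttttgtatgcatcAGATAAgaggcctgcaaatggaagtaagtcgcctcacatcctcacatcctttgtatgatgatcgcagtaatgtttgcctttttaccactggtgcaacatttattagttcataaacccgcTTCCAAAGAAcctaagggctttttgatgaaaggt
region 5: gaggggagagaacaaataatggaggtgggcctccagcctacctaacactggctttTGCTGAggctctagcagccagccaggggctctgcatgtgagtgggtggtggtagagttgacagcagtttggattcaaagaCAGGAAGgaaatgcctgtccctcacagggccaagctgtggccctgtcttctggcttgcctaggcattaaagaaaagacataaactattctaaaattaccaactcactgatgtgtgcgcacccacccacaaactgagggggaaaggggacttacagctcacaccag
region 6: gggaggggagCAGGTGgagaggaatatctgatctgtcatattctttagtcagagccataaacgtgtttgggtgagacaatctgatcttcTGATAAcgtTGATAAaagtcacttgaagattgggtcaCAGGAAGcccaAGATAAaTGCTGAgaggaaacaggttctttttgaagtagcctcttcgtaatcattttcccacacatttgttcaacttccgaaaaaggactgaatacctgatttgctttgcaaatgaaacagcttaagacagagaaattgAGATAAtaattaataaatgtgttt

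Region 6, the widest of the locus, lay downstream of IL4 and had a peak in every list. It spanned chr5:132023740-132025366, 1627 bp, and was wider than 99.2% of all regions. It began 5.37 kb past the end of IL4 and lay 14.1 kb from the IL4 start site, in no coding gene, over the start and exons 1 and 2 of the long noncoding RNA gene ENSG00000230612. Of all regions, 26.6% had a peak in all 4 lists, and region 6 was the only one of the 6 at this locus that did.

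The fold enrichment over total input at region 6 was 4.28 in the NS DMSO list, 4.05 in the SW DMSO list, 6.60 in the NS rottlerin list and 6.04 in the SW rottlerin list. The lists labelled rottlerin thus held the higher values and the lists labelled DMSO the lower ones. The median fold enrichment of all peaks was 4.05, 4.03, 4.08 and 4.03, but the lists differ in length. Within its own list the peak stood above 58.5% of all peaks in NS DMSO, 50.9% in SW DMSO, 96.2% in NS rottlerin and 92.1% in SW rottlerin. The peak score, 10 times the −log10 q-value, followed the same order, at 56, 37, 116 and 93.

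Set against the NS DMSO list, the fold enrichment of region 6 was 0.947 times as high in the SW DMSO list, 1.54 times in the NS rottlerin list and 1.41 times in the SW rottlerin list. The 10841 regions shared by all lists had median ratios of 0.985, 1.04 and 1.08. These medians went in the same directions as region 6, by smaller amounts. The ratio at region 6 was above that of 97.5% of these regions for NS rottlerin and 91.8% for SW rottlerin, but of only 39.8% for SW DMSO. With 1 library per list, the error of these ratios is unknown and the difference could not be tested.

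The peaks of region 6 differed in extent as well as height. The NS DMSO peak was 1627 bp wide and set both ends of the region, although its fold enrichment was among the lower ones. The others were 1062 bp (SW DMSO), 1092 bp (NS rottlerin) and 1057 bp (SW rottlerin). All 4 shared the interval chr5:132023823-132024834, 1012 bp or 62.2% of the region, on the side nearer IL4.

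**Figure D1:**
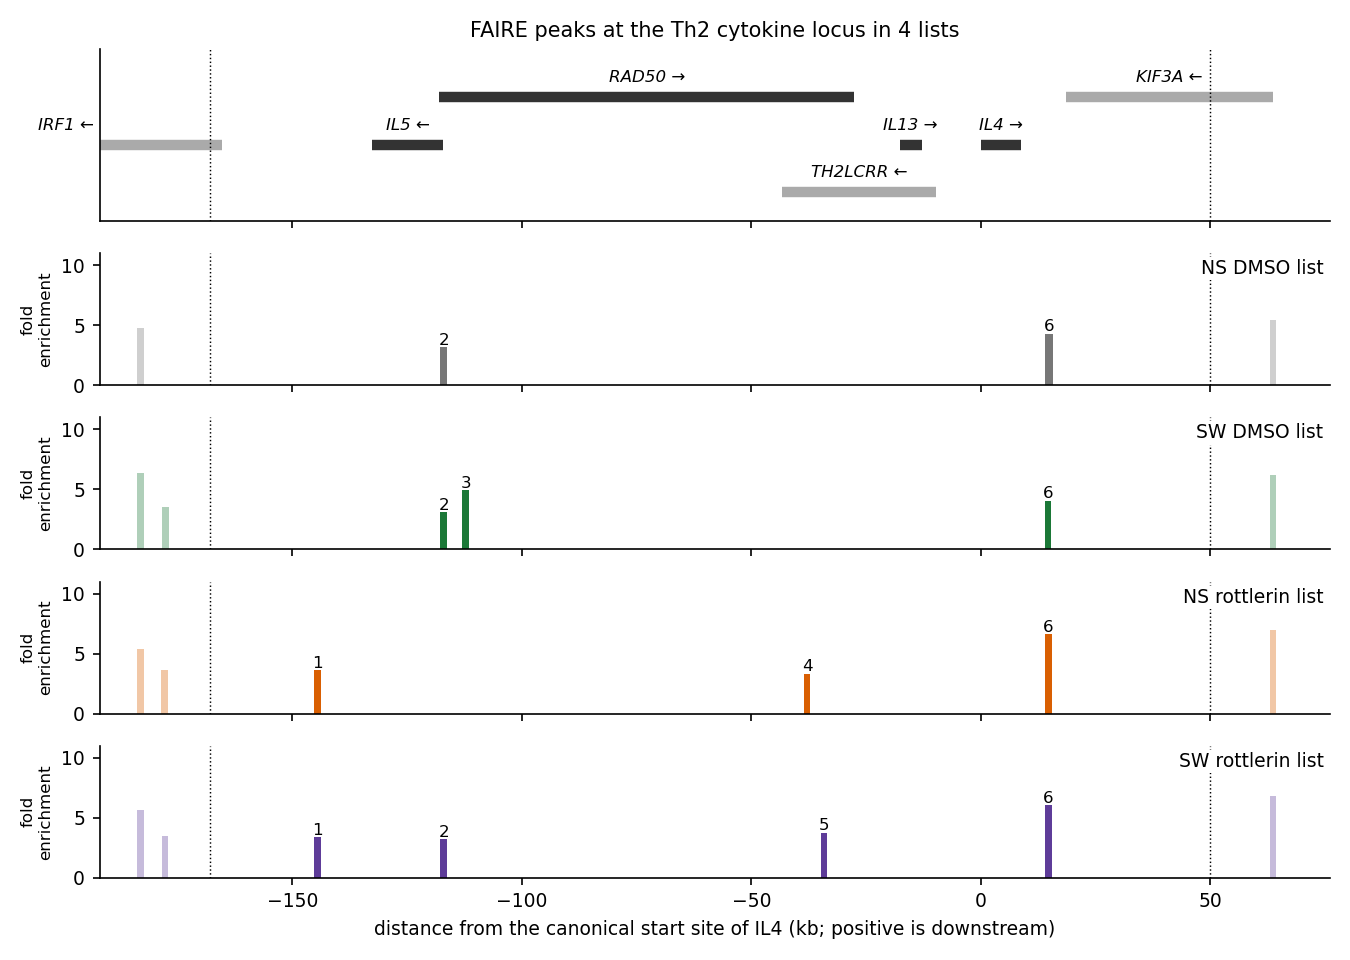
Genes of the locus (top; arrows give the direction of transcription) and the peaks of each list, with fold enrichment over total input on the y axis and distance from the IL4 start site in kb on the x axis; peaks are drawn wider than scale, the numbers are those of the regions, dotted lines bound the locus and pale bars are the flanking regions named in the text. Region 6 stands in all 4 lists, and no bar lies over IL13 or IL4.

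Region 1 lay on the other side of the cytokine genes, between IRF1 and IL5, and was listed only under the rottlerin labels. It spanned chr5:131865038-131865342, 305 bp, at 13.9 kb from the start of the canonical IL5 transcript and 27.3 kb from that of RAD50. The annotation placed it in an intron of ENSG00000283782, a read-through gene that runs across this stretch, and in no other gene. Its fold enrichment was 3.62 in the NS rottlerin list and 3.38 in the SW rottlerin list, which was above 30.1% and 21.4% of the peaks of these lists. The peak was 187 bp wide in the first and 305 bp in the second, with q-values of 3.69e-06 and 9.34e-05. Both fold enrichments were low for their lists, while the scores of 54 and 40 were above 46.4% and 34.7% of the peaks. The NS DMSO and SW DMSO lists had no peak there. A peak under both rottlerin labels and no other was seen in 8.44% of all regions, against 1 of the 6 here.

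Region 2 was the RAD50 promoter. It spanned chr5:131892564-131892826, 263 bp, and held the start site and exon 1 of the canonical RAD50 transcript. Its fold enrichment was 3.14 in the NS DMSO list, 3.08 in the SW DMSO list and 3.23 in the SW rottlerin list, and the NS rottlerin list had no peak. The 3 values lay close together and low in their lists, above 10.0%, 8.94% and 15.3% of all peaks. Among the regions that held the start site of a coding gene, the RAD50 promoter was likewise near the lower end, above 7.46%, 7.05% and 9.70% of those with a peak in the same list, whose medians were 4.47, 4.39 and 4.54.

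Most promoter regions did not drop out of a list in this way. Of 7291 regions that held a coding start site, 5171 (70.9%) had a peak in every list, and 96 (1.32%) had the pattern of RAD50, present in every list but NS rottlerin. Over all regions that pattern was seen in 2.11%. The q-values at the RAD50 promoter were 0.000191, 0.000379 and 9.66e-05, well below the highest q-values of the lists, which were between 0.0946 and 0.0983. Those highest values exceed the cut-off of 0.05 that the methods state, which the RAD50 peaks also met. The sequence was that of a CpG island, with 72.2% G and C (a higher share than in 95.3% of regions) and 32 CpG at 0.939 of the number that its base composition gives. The same region stood 0.0340 kb from the start of the IL5 gene record, because a longer IL5 transcript begins there, and 13.3 kb from the start of the canonical one.

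Region 3 lay 4.71 kb inside RAD50, in intron 2, at chr5:131897379-131897570, 192 bp. It was listed only in SW DMSO, with a fold enrichment of 4.91 that was above 78.9% of that list and was the highest at the locus outside region 6. Its score of 54 was equal to the median of that list. It was the smallest region of the locus, and 4.32% of all regions had a peak in this list alone.

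Regions 4 and 5 lay in the 3′ part of RAD50, where the locus control region is found, and each was listed once. Region 4, chr5:131971613-131971964 (352 bp), was in intron 21 of the 25-exon RAD50 transcript and in an intron of TH2LCRR, a noncoding RNA transcribed across the locus control region on the other strand. It was listed only in NS rottlerin, with a fold enrichment of 3.31 and a score of 14. That score was above only 1.49% of its list and its q-value was 0.0357, so it was the weakest peak of the locus by these measures, although its fold enrichment was above those of region 2. Region 5, chr5:131975348-131975670 (323 bp), was in intron 23 of RAD50 and also within TH2LCRR. It was listed only in SW rottlerin, with a fold enrichment of 3.77 (above 38.7% of its list), a score of 36 and a q-value of 0.000205.

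The pair were only 3.38 kb apart, closer than most neighbouring regions, whose median gap was 24.3 kb, but they did not overlap and shared no list. Region 4 was 21.9 kb from the IL13 start site and 37.7 kb from that of IL4, and region 5 was 18.2 kb and 34.0 kb from them. Peaks of the NS rottlerin list alone made up 8.42% of all regions and those of the SW rottlerin list alone 18.2%.

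**Figure D2:**
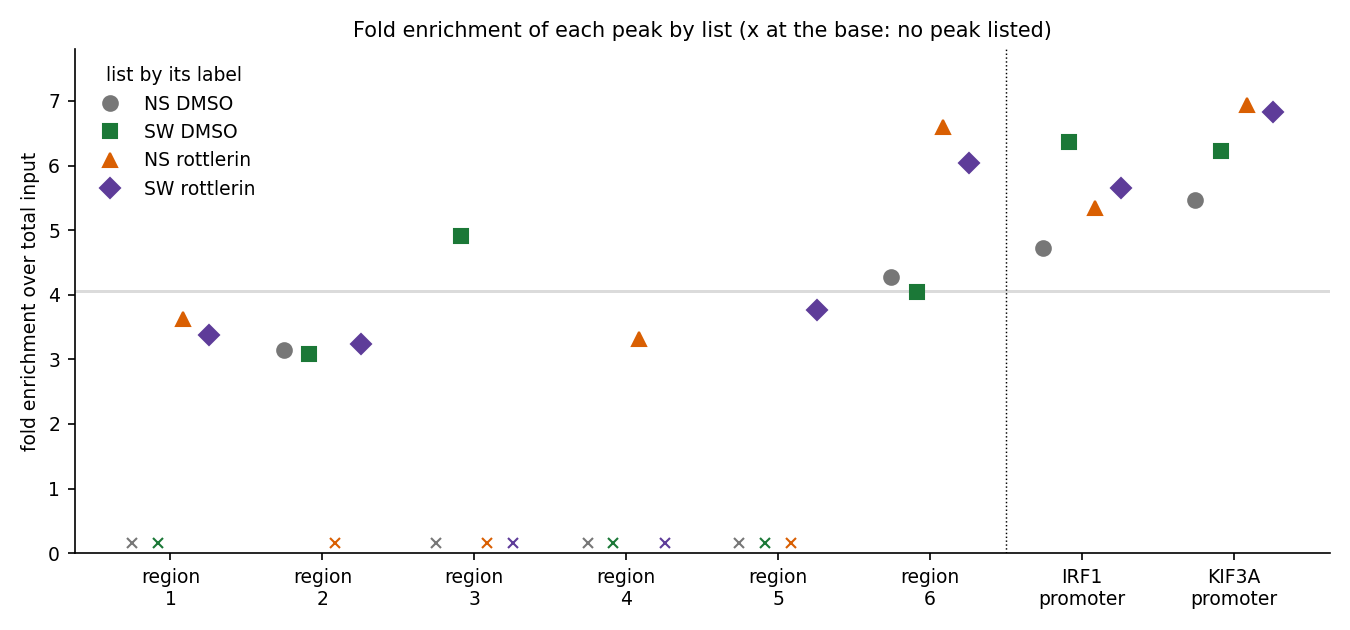
Fold enrichment over total input (y axis) of each peak at the 6 regions of the locus and, right of the dotted line, at the promoters of the flanking genes IRF1 and KIF3A; symbols give the list, a cross at the base means that no peak was listed, and grey lines give the list medians, 4.03 to 4.08. Of the locus only region 6 and, in SW DMSO, region 3 reach the medians.

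No list had a peak at the canonical start site of IL4, IL5 or IL13. The longer IL5 transcript is the exception described above, since it starts next to the RAD50 promoter peak of 3 lists. From the IL4 start site the nearest peak was 14.1 kb away in every list, always that of region 6. From the canonical IL5 start site it was 13.4 kb away in NS DMSO and SW DMSO, 14.0 kb in NS rottlerin and 13.3 kb in SW rottlerin, at the RAD50 promoter or, in NS rottlerin, at region 1. From the IL13 start site it was 29.9 kb in NS DMSO and SW DMSO, 21.9 kb in NS rottlerin and 18.2 kb in SW rottlerin, so only the lists with region 4 or 5 had a nearer peak.

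These distances were not unusual. The median coding gene was 13.5 kb from a peak in NS DMSO, 11.9 kb in SW DMSO, 7.92 kb in NS rottlerin and 3.66 kb in SW rottlerin. The share of coding genes with a peak nearer than that of IL4 was 50.5%, 51.9%, 55.8% and 61.3%, and for IL13 it was 61.1%, 62.7%, 61.5% and 64.5%. A peak within 1 kb of the start was listed for 36.2%, 37.4%, 40.9% and 45.3% of coding genes, so its absence at the canonical starts of the 3 cytokine genes was the more common state. RAD50 held its start site within a peak in 3 lists and had the nearest peak 27.4 kb away in NS rottlerin.

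The regions were spaced unevenly. All of IL13 and IL4 lay in the 48.1 kb without a peak between regions 5 and 6, a gap longer than 68.5% of those between neighbouring regions. The widest gap, 74.0 kb, ran through the middle of RAD50 between regions 3 and 4. By the rule IL4, IL5 and IL13 had 3 regions each, equal to the median of 3.00 over 20163 coding genes, and RAD50 had 5, more than 71.3% of coding genes. The 3 regions of IL4 and of IL13 were the same ones, regions 4, 5 and 6.

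The lists differed in length, which bears on every count of presence. They held 18977 (NS DMSO), 20132 (SW DMSO), 23835 (NS rottlerin) and 30409 (SW rottlerin) peaks, and the locus peaks numbered 2, 3, 3 and 4 in the same order. Over all regions 46.5%, 49.3%, 58.4% and 74.5% had a peak in these lists. Of the 6 locus regions, 4 had no peak in NS DMSO, against 53.5% of all regions, and 3 were in 1 list only, against 38.8%. With so few regions, neither count is read as a property of the locus.

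Regions seen in fewer lists were also weaker over the whole genome. The median of the highest score per region was 31 for regions in 1 list, 51.0 in 2, 69.0 in 3 and 119 in 4 lists. The 3 locus regions in 1 list had a median of 36.0, and all 6 had a median of 47.0, against 54.0 over all regions. When only the higher-scoring 50% of each list was kept, 1 region remained, region 6, with peaks in the NS rottlerin and SW rottlerin lists only. When each list was instead cut to the number of peaks of the shortest, 4 regions remained, 2 of them without an NS DMSO peak, and the SW rottlerin list kept 1 peak, at region 6. Region 1 was then listed in NS rottlerin alone, and regions 4 and 5 were lost. The part of peak strength or sequencing depth in the differences between lists was not tested.

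**Figure D3:**
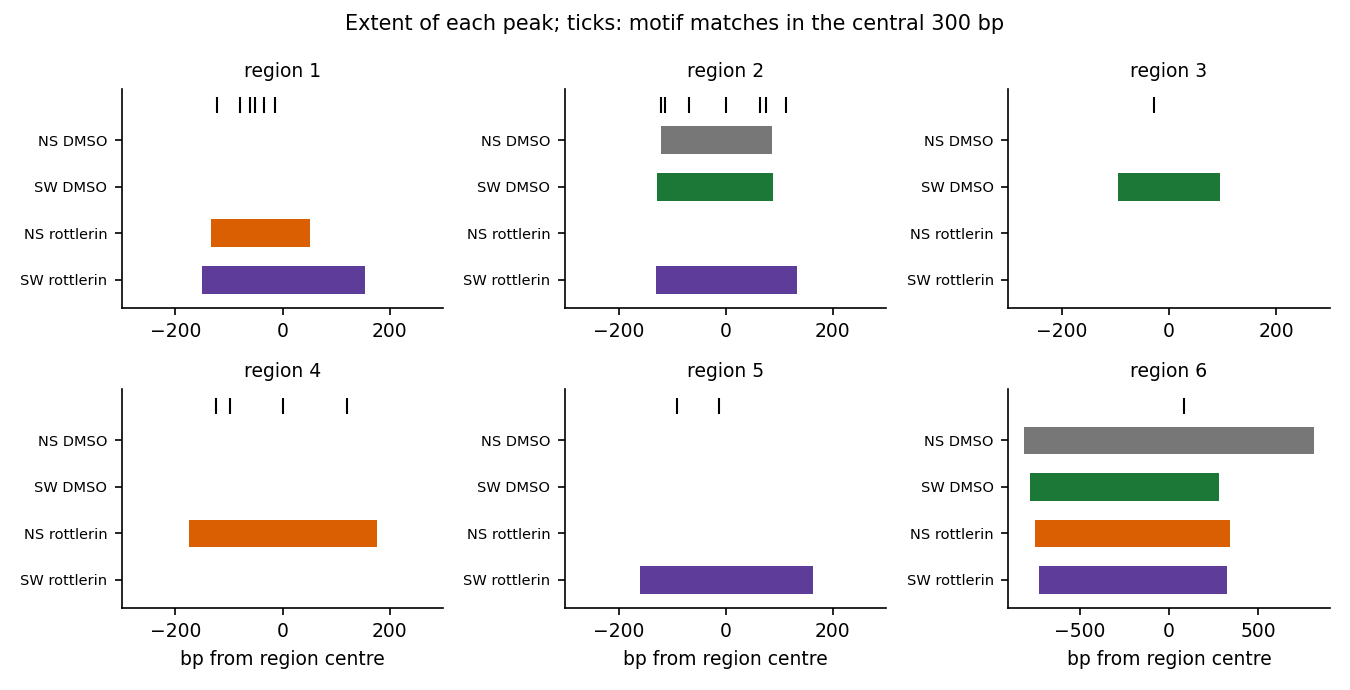
Extent of each peak in bp from the centre of its region (x axis), with a row per list; ticks above mark matches to the 11 motif families in the central 300 bp. The NS DMSO peak of region 6 reaches farther to the right than the others, and the matches of region 1 fall left of its centre, under both of its peaks.

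Matches to short motifs of factors known in T cells were counted in the central 300 bp of each region, on either strand, and compared with the share of all regions that held 1 or more. GATA (GATAA or GATAG, with A or T before it) was matched in 2 of the 6 regions against 42.5% of all regions, and ETS (CCGGAAG or CAGGAAG) in 4 against 24.0%. MAF (TGCTGA) was matched in 2 against 21.3%, STAT6 (TTC, any 4 bases, then GAA) in 1 against 8.64% and STAT5 (TTC, any 3 bases, then GAA) in 1 against 9.53%. AP-1 (TGACTCA or TGAGTCA) was matched in 1 against 13.2%, RUNX (TGTGGT or TGCGGT) in 2 against 37.9% and NFκB (GGG, any 5 bases, then CC) in 2 against 38.3%. The E-box (CA, then any base but A, then CTG) was matched in 3 against 48.0%. NFAT (TGGAAA) was matched in none of the 6 against 27.9%, and CTCF (CC, any 3 bases, AG, any 2 bases, then GGC) in none against 9.78%. Over whole regions, however, NFAT was matched in 2 of the 6, regions 4 and 6, against 32.5%. The NFκB spelling is loose and GC-rich, the ETS and STAT spellings can share letters, and a match is a description of the letters and not a bound site.

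Region 1 held the most kinds of match, 6 of the 11 families, more than 97.4% of all regions. In the sequence printed above, the STAT5 match TTCTGAGAA and the ETS match CAGGAAG were separated by a single base, followed by a RUNX match and, nearest the centre, a GATA match, all within the left part of the region that both peaks covered. Region 2 held ETS, RUNX, NFκB and E-box matches, among them an ETS match CCGGAAG close upstream of the RAD50 start. Region 3 held only an ETS match.

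Region 4, in the 3′ part of RAD50, held a GATA match AGATAA at its centre together with AP-1 (TGAGTCA), STAT6 (TTCCAAAGAA) and E-box (CATCTG) matches. It was the only region of the locus with an AP-1 or a STAT6 match in its central 300 bp. Region 5 held an ETS match (CAGGAAG) and a MAF match (TGCTGA).

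The centre of region 6 held only an E-box match (CAGGTG), but the region was much longer than the window. Over its full 1627 bp it held 7 GATA matches, 4.30 per kb against 2.06 per kb over all regions, and 7 MAF matches, 4.30 per kb against 0.789 per kb. The stretch printed above holds 4 of the GATA matches, of which the first 3 lie within the interval shared by all lists. A MAF match, TGCTGA, follows the third of these after a single base. Region 6 also held 4 E-box matches, 2 each for NFAT, ETS and RUNX, and 1 for STAT6 (TTCTCGAGAA). The STAT6 match, both NFAT matches and some of the GATA and MAF matches lay in the part covered only by the NS DMSO peak. The other densities were 2.46 against 2.23 per kb for the E-box, 1.23 against 1.11 for NFAT, 1.23 against 0.962 for ETS, 0.615 against 0.294 for STAT6 and 1.23 against 1.56 for RUNX. NFκB, AP-1, STAT5 and CTCF had no match in region 6, against 2.87, 0.463, 0.332 and 0.353 per kb. The full-length counts were made after the central window had been seen.

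Both flanking promoters were accessible in every list, and within each list their fold enrichment was above that of every locus peak other than region 6. At the promoter of IRF1, an interferon-regulated transcription factor, fold enrichment was 4.73 in NS DMSO, 6.36 in SW DMSO, 5.35 in NS rottlerin and 5.65 in SW rottlerin. At the promoter of KIF3A, a kinesin motor subunit of the cilium, it was 5.46, 6.22, 6.94 and 6.83. The NS DMSO list held the lowest value at each of these promoters, but not at region 6, where SW DMSO was lower. The nearest region outside the window on the IRF1 side, chr5:131831439-131832295, had no NS DMSO peak and values of 3.57, 3.66 and 3.49 in the others. It lay 46.9 kb from the canonical IL5 start, but 60.2 kb from the start of the IL5 gene record, which decided membership.

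A chosen group of 24 transcription factors and receptors of the Th2 pathway had a peak at their start in all lists about as often as coding genes in general. The group is not limited to type 2 genes, since it includes the type 1 factor gene TBX21 and general T cell genes such as TCF7 and IL2RG. Of these 24 genes, 23 had a region and 8 (33.3%) had a peak within 1 kb of the start in all lists: GATA3, STAT6, MAF, JUNB, NFATC2, NOTCH1, CCR4 and IL2RG. Another 7 had one in some lists and 9 (37.5%) in none. Of all coding genes, 31.9% had one in all lists and 52.7% in none. GATA3, the master regulator of type 2 cells, had 4 regions, 2 of them in all lists. STAT6, the transducer of IL-4 signals, had 4 regions, 3 of them in all lists, and MAF, an activator of IL4, had 3 regions, 1 of them in all lists.

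For other genes of that group the number of regions differed between lists, in both directions, and these counts are read against the shares of all regions in each list, 46.5%, 49.3%, 58.4% and 74.5%. TBX21, which encodes the type 1 factor T-bet, had 7 regions and none in NS DMSO, with 4, 2 and 7 in SW DMSO, NS rottlerin and SW rottlerin. NFATC2, a calcium-driven activator of cytokine genes, had 12 regions, of which 1, 3, 7 and 12 were in NS DMSO, SW DMSO, NS rottlerin and SW rottlerin. IL2RA, the alpha chain of the IL-2 receptor, had 9 regions and a peak at its start only in the SW DMSO and SW rottlerin lists. Other genes had as many or more regions in NS DMSO as in some of the other lists. TCF7, a factor of early T cell development, had 8, 5, 5 and 8 in NS DMSO, SW DMSO, NS rottlerin and SW rottlerin, and the chemokine receptor gene CCR4 had 4, 2, 3 and 4. NOTCH1, a receptor of T cell fate, had 3, 2, 3 and 2, and SATB1, a chromatin organiser, had 4, 4, 1 and 6. The receptor gene IL4R had 3 regions and none at its start, and IL13RA1 had no region. Summed over the 24 genes, 56.8% of the regions had no NS DMSO peak, against 46.2% summed over all coding genes and 71.4% over the 4 genes of the locus, whose regions are partly counted more than once.

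Of 10 neighbours of the locus on 5q31, IRF1, KIF3A and SLC22A4 had a peak at the start in all lists. IL3, a growth factor gene of the same cytokine cluster, had one only in the NS rottlerin and SW rottlerin lists and 5 regions, 4 of them without an NS DMSO peak. CSF2, which encodes GM-CSF and lies next to IL3, had 7 regions, of which 1, 3, 2 and 7 were in NS DMSO, SW DMSO, NS rottlerin and SW rottlerin. Among the others, KIF3A had most regions in NS DMSO, with 3, 2, 2 and 2 in the same order. So did the cyclin family gene CCNI2, with 2, 1, 1 and 1, and the carnitine transporter gene SLC22A5, with 1, 0, 0 and 0. IRF1 (4, 5, 6 and 8) and P4HA2 (2, 5, 4 and 6) had the fewest in NS DMSO. The same held for PDLIM4 (1, 4, 3 and 5) and SLC22A4 (1, 3, 2 and 4), and SEPTIN8 had 1, 0, 1 and 1. These counts too stand beside the shares of 46.5%, 49.3%, 58.4% and 74.5% over all regions. The neighbours had a median of 4.50 regions, and the median of the 24 factors and receptors was 5.00. As a check of the cell type, 6 of 8 T cell marker genes had a peak at the start in at least 1 list, CD3D, CD3E and CD28 in all. CD3G had one in NS DMSO only, and CD2 and LCK had none. None of 4 B cell, 3 myeloid, 1 liver and 1 erythroid marker genes had one, but 52.7% of all coding genes also had none. All 4 B cell genes had a region in the gene body or within 50 kb of the start, so the check rests on start sites of few genes.

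**Figure D4:**
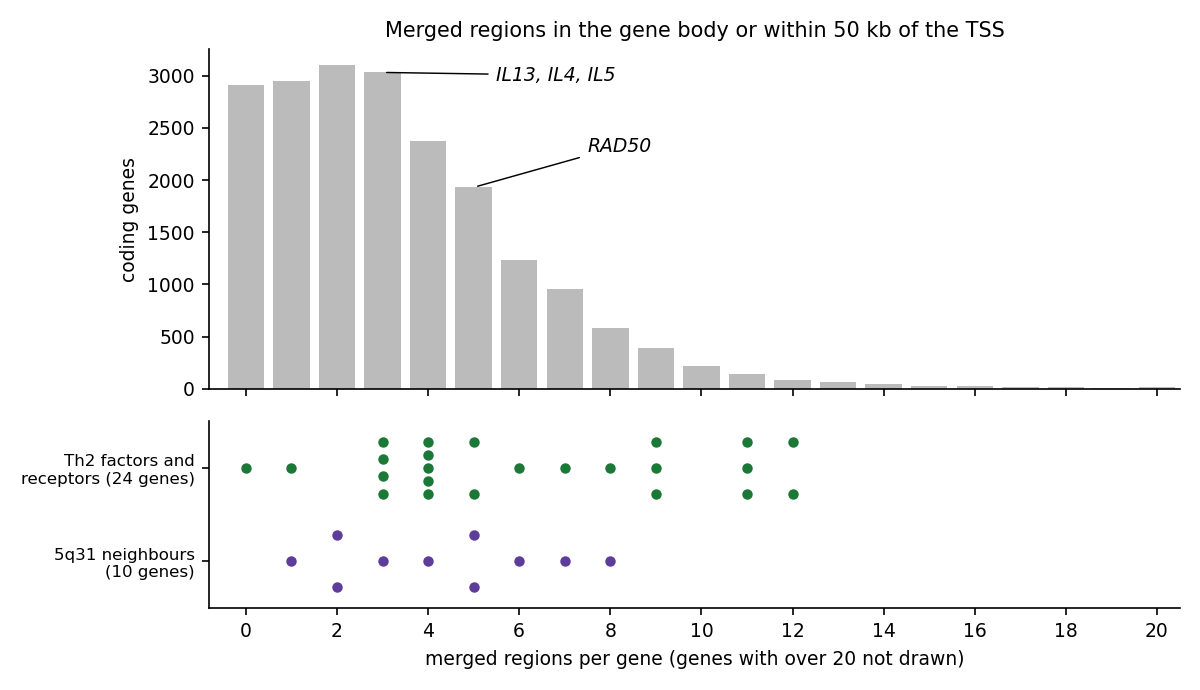
Number of coding genes (y axis, top) by the number of merged regions in the gene body or within 50 kb of the start (x axis), and the same count for each of the 24 Th2 factors and receptors and 10 neighbours on 5q31 (points, bottom). IL4, IL5 and IL13 stand at 3, the median of all coding genes, and RAD50 at 5.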

How the data were processed

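FAIRE-seq was made in Jurkat cells, and the lists hold 4 of the 9 samples, 1 library each. Per the labels and the study's methods the authors trimmed reads with cutadapt, used Bowtie2 for alignment to hg19 and Picard to discard duplicate reads, and called broad peaks per sample with MACS2 against total input. Versions are not given in the sources used here. The deposited columns are a score (10 times −log10 q-value, cut to a whole number), a fold enrichment over total input (a ratio), a −log10 p-value and a −log10 q-value. Depth per library is unknown, so no interval or floor is given.

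Here peaks overlapping by 1 bp or touching were merged (bedtools 2.31.1, python 3.11.15) and assigned with GENCODE 44 lifted to GRCh37; 28 merged regions lay outside chromosomes 1 to 22, X and Y. Membership used the start of each gene record, and distances are to the canonical transcript. All regions of the locus are named. The merging and motif search were tested on simulated data. Members, gene lists and motifs were chosen with earlier results of these data known. Alternatives were other windows, q-value limits, the higher-scoring 50% of each list, lists of equal length, start sites and motif windows.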

Additional observations from a re-analysis of the deposited data

Results flagged for a closer look

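At the KIF3A promoter, which lies just outside the locus, the difference in fold enrichment between SW and NS lists had opposite signs under the 2 drug labels. SW minus NS was 0.76 for the lists labelled DMSO and -0.11 (6.83 against 6.94) for those labelled rottlerin. The KIF3A ratios to NS DMSO were above 81.1% (SW DMSO), 87.4% (NS rottlerin) and 80.1% (SW rottlerin) of those at regions in all lists. The cells behind every list but NS DMSO are uncertain, so neither difference is read as an effect of rest or rottlerin. The contrast between labels was not tested, since each value comes from 1 library per list.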

How the results depend on the processing

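Keeping the higher-scoring 50% of each list left 1 region, with no peak in NS DMSO, 0 in all lists and 0 in 1 list only. The NS DMSO and SW DMSO lists then had 0 peaks each, and the NS rottlerin and SW rottlerin lists 1 each. With every list cut to the length of the shortest, 2 regions lacked an NS DMSO peak and SW rottlerin had 1 peak. With 10 kb in place of 50 kb, 0 regions had a peak in all lists, the lists NS DMSO, NS rottlerin and SW rottlerin had 1, 1 and 2 peaks, and the median fold enrichment of the locus peaks was 3.14, 4.00, 3.31 and 3.50 (NS DMSO, SW DMSO, NS rottlerin, SW rottlerin), against 3.71, 4.05, 3.62 and 3.57 with 50 kb. With 100 kb the locus had 14 regions, of which 7 had no NS DMSO peak, 4 were in all lists and 5 in 1 list, from 7, 8, 9 and 11 peaks. These changes follow from the fewer or further peaks admitted. With the start of every transcript of the 4 genes, a region on the IRF1 side was added, making 7. A q-value limit of 0.05 left the 6 regions and all list counts as they were. Of the counts of motif matches, 8 of 22 alternatives moved by more than 1.5 times, all upward. The direction is no finding, because the central 500 bp contain the central 300 bp and those counts could not fall. Whole regions also contain the central 300 bp, except regions 2 and 3, which are shorter. In the central 500 bp GATA was matched in 4 of the 6 regions against 56.8% of all regions, and RUNX in 4 against 48.1%, so both turned from below to above the share of all regions. NFAT, matched in none at 300 bp, was matched in 1 against 41.0% at 500 bp and in 2 against 32.5% over whole regions. No paired analysis was possible because the labels give no replicate numbers and 1 library per state. Depth per library is unknown, so an absent peak is no measure of closed chromatin.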
